A study of Mus musculus with 12 samples.

Results

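Monocarboxylate transporters carry lactate, pyruvate and ketone bodies across membranes, and the 10 genes described here are the transporters, their chaperones and the mitochondrial pyruvate carrier that were picked by gene symbol from the 55471 genes of the deposited table. They are Slc16a1, Slc16a3, Slc16a6, Slc16a7, Slc16a10 and Slc16a13 of the SLC16 transporter family, the chaperones Bsg and Emb, and the carrier subunits Mpc1 and Mpc2. All 10 have counts. RNA was sequenced from germ cells that flow cytometry had sorted from C57Bl mice with a tdTomato reporter in germ cells. The first group holds pachytene and diplotene (PD) cells kept for 48 hours with oxamate at 24 mM, which blocks lactate dehydrogenase, and the second holds untreated PD cells kept for 48 hours. The third group holds leptotene and zygotene (LZ) cells kept for 6 days with 0.3 mM octyl-L2HG, a form of L-2-hydroxyglutarate that enters cells, and the fourth holds untreated LZ cells kept for 6 days. Every group has 3 libraries, from 3 independent experiments by the series text, and the 4 groups share the strain, the reporter and the culture of isolated cells. The labels name neither the promoter that drives the reporter nor the animals behind a library, so p-values measure the spread between libraries.

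In the testis, Sertoli cells turn glucose into lactate and hand it to the spermatocytes, which depend on it more as meiosis proceeds. A monocarboxylate crosses the plasma membrane through an SLC16 protein together with a proton, and several of these proteins reach the membrane only with an immunoglobulin-family partner. Examples are basigin, from Bsg, for the proteins of Slc16a1 and Slc16a3, and embigin, from Emb, for that of Slc16a7. Inside the cell, lactate dehydrogenase interconverts lactate and pyruvate, and a dimer of MPC1 and MPC2 carries pyruvate into mitochondria. Mice without basigin make no sperm.

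The promoters of the members that differed most between the stages, where a sequence could be matched, are shown because these genes moved in groups: Slc16a1, Slc16a10 and Mpc1 were lower and Mpc2 was higher in PD cells. RefSeq sequences of build GRCm38.p6 matched 6 of the 10 members, Slc16a1, Slc16a3, Slc16a10, Emb, Mpc1 (at a pair of start sites) and Mpc2. Each line gives the 250 bases before a start site, 5′ to 3′ on the gene's strand. Capitals mark a GC box (GGGCGG or its reverse complement) and an E-box (CACGTG).
Slc16a1, chr3:104638414-104638663, plus strand: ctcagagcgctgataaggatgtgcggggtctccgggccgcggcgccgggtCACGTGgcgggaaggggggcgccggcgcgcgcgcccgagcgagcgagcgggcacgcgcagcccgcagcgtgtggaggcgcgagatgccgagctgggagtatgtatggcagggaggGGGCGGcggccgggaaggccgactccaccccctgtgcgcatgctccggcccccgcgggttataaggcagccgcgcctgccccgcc
Slc16a10, chr10:40142255-40142504, minus strand: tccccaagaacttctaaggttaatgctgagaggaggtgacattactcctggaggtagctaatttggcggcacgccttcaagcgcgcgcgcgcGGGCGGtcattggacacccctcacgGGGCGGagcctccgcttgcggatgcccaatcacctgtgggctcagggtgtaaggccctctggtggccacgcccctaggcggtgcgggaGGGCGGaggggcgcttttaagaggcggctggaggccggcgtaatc
Mpc1, first start site, chr17:8283537-8283786, plus strand: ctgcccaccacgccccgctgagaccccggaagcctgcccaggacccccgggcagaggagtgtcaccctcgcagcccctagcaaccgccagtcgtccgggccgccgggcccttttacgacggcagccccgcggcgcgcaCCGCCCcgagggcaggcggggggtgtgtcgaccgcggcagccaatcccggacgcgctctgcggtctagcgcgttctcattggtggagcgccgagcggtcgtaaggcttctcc
Mpc2, chr1:165461010-165461259, plus strand: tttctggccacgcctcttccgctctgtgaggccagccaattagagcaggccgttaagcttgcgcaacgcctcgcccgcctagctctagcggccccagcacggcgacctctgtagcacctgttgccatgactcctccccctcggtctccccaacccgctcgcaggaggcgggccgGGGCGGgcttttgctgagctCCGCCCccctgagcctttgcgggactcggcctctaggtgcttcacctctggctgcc

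All 7 member promoters held a GC box, as did 32.7% of the 32851 RefSeq promoters of the same length. The G and C content of these 7 windows was 54.8% to 76.4% and was not compared with that of all promoters. Slc16a10 had 3 such matches, Mpc2 had 2, and Slc16a1 and both Mpc1 start sites had 1 each. The E-box was found in Slc16a1 and in 6.02% of all promoters. The cAMP response element TGACGTCA was in none of the 7 and in 1.55% of all promoters, and its half-site TGACG, which lies inside the full element, was in Slc16a3 and in 17.8% of all. The MYB core AACNG was found in Slc16a3, Emb, Mpc1 and Mpc2 but not in the windows of Slc16a1 and Slc16a10, against 74.2% of all promoters. Both strands were searched, and a match is a description of the letters and not a bound site.

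Total counts were 19107780 to 21115131 in PD libraries with oxamate, 15202579 to 21275486 in untreated PD, 11271410 to 18432143 in LZ with octyl-L2HG and 10532504 to 15903788 in untreated LZ. Levels are normalized counts, scaled to library size and composition, and libraries A, B and C are named by a code that the 4 groups share. Markers went with the labelled stages: a list of 10 early meiotic genes held 0.0558% to 0.0877% of counts in untreated PD libraries and 0.494% to 0.697% in untreated LZ libraries, while 10 pachytene and diplotene markers held 1.23% to 1.25% in untreated PD and 0.107% to 0.158% in untreated LZ. The 10 round spermatid markers held 0.133% to 0.157% of counts in untreated PD and 0.00108% to 0.00233% in untreated LZ, and 10 Sertoli markers 0.000252% to 0.000355% in untreated PD and 0.0347% to 0.0389% in untreated LZ. Peritubular markers held 0.000568% to 0.000710% in untreated PD and 0.0215% to 0.0253% in untreated LZ, spermatogonial markers 0.000835% to 0.00105% in untreated PD and 0.0172% to 0.0199% in untreated LZ, and Leydig and macrophage markers at most 0.000467% in untreated PD and at most 0.00196% in untreated LZ. Endothelial markers were higher in PD, at 0.00247% to 0.00252% in untreated PD and 0.000845% to 0.00109% in untreated LZ. Erythroid markers held at most 1.26e-05% in untreated PD and at most 8.54e-05% in untreated LZ. Of the Sertoli markers, Fshr was at 0 in all libraries of both untreated groups, and Wt1, Gata4 and Rhox5 in untreated PD. The part of these other cell types in the stage results below was not tested.

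**Figure D1:**
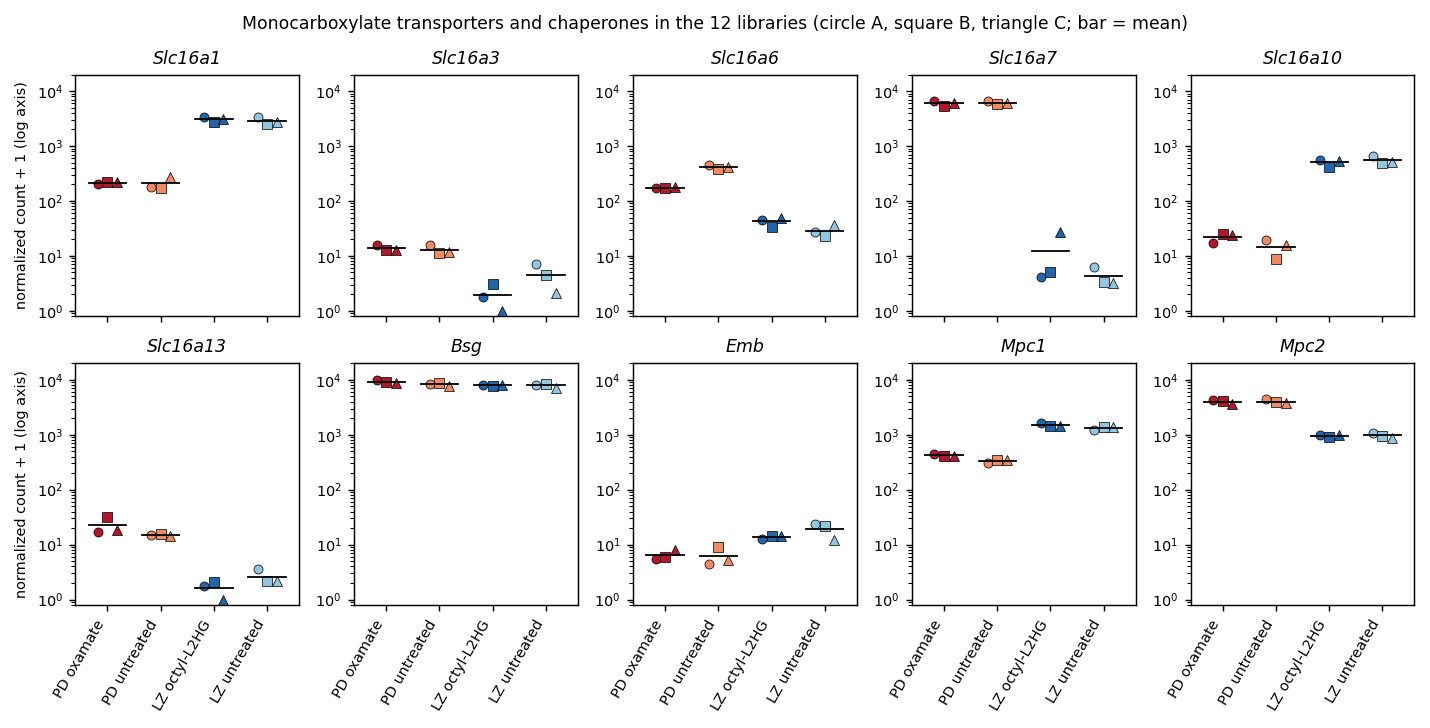
Normalized count + 1 on a log axis for the 10 members in each of the 12 libraries, with PD groups in red and LZ groups in blue, and a bar at each group mean. Slc16a7 lies between 5425 and 6676 in the PD libraries and at or below 26.5 in the LZ libraries, Slc16a1 and Slc16a10 show the opposite order, and Bsg is level across all groups.

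The stage comparison asks how untreated PD cells differ from untreated LZ cells, and it set the plasma membrane transporters apart: Slc16a7 and Slc16a6 were higher in PD cells and Slc16a1 and Slc16a10 were lower. Of 8 members tested, 3 were higher and 4 were lower, where limma at an adjusted p under 0.05 called 50.8% of all tested genes higher and 39.0% lower, so the number called is close to the background and it is the sizes and the directions that describe the members. The median log2 fold change was -0.79 over the tested members and 0.49 over all genes. The stages also differ in time in culture, 48 hours against 6 days, and stage and culture cannot be told apart. In bulk RNA, fewer cells of a type and less RNA per cell cannot be told apart either.

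Slc16a7 encodes MCT2, a transporter with a high affinity for lactate and pyruvate. Its normalized counts were 6573, 5736 and 6051 in untreated PD libraries A, B and C, against 5.16, 2.32 and 2.27 in untreated LZ libraries. The groups were far apart, and the 3 LZ libraries together held 10 reads. The log2 fold change was 10.56 (SE 0.60, limma adjusted p = 2.47e-08). The gene, ENSMUSG00000020102, lies on chromosome 10 at 125219270 to 125389465 in GRCm38.

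Slc16a1 encodes MCT1, the most widely used member of the family, which moves lactate in or out with the gradient. It had 182, 169.7 and 270.1 normalized counts in untreated PD libraries, against 3405, 2542 and 2707 in untreated LZ libraries. The groups did not overlap, and the mean was 13.9-fold higher in LZ (log2 fold change -3.81, SE 0.16, limma adjusted p = 1.32e-11). The gene, ENSMUSG00000032902, lies on chromosome 3 at 104638668 to 104658462.

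Slc16a6 encodes MCT7, which exports ketone bodies from the liver in zebrafish. Its normalized counts were 444.8, 373 and 420.2 in untreated PD libraries, against 25.8, 22.1 and 35.2 in untreated LZ libraries, groups that did not overlap. The log2 fold change was 3.87 (SE 0.20, limma adjusted p = 1.11e-10). The gene, ENSMUSG00000041920, lies on the minus strand of chromosome 11 at 109450855 to 109473598 and overlaps Amz2 and Arsg on the other strand. The strand setting of the counting is not given in the sources used here, so part of its reads could come from these genes, and both were also higher in PD cells (log2 fold changes 2.95 and 4.89).

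Slc16a10 encodes TAT1, which carries aromatic amino acids and not lactate. It had 18.4, 7.92 and 15.1 normalized counts in untreated PD libraries, against 654.5, 484.1 and 520.8 in untreated LZ libraries. It was the member with the largest fall (log2 fold change -5.29, SE 0.27, limma adjusted p = 9.99e-11), and the LZ mean was 40.0-fold the PD mean. ENSMUSG00000019838 lies on chromosome 10 at 40033532 to 40142258.

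Slc16a3, which encodes the lactate exporter MCT4 of glycolytic cells, and Slc16a13, a family member known from the liver, were too low to be tested. Slc16a3 had 15.0, 10.2 and 10.9 normalized counts in untreated PD libraries, against 6.02, 3.48 and 1.13 in untreated LZ libraries. Slc16a13 had 13.8, 14.7 and 13.4 against 2.58, 1.16 and 1.13 in the same groups. Neither gene's groups overlapped. In the authors' deposited table their log2 fold changes were 1.76 (adjusted p = 0.0139) and 3.02 (adjusted p = 0.000317), and without the filter on low counts both were also called higher here. Slc16a3 overlaps Csnk1d on the other strand, a gene with up to 5233 counts in a library, so its few reads are uncertain.

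Put per kilobase of the longest protein-coding transcript, the 6 SLC16 members added up to similar levels in the stages, 713 ± 50.05 normalized counts per kb in untreated PD and 763 ± 121 in untreated LZ (SD, n = 3 each). The likeness of these sums rests on the scaling to composition, with factors of 0.861 to 0.881 in untreated PD and 1.13 to 1.26 in untreated LZ. Scaling by totals alone would put the PD sum lower against the LZ sum. The make-up differed too, and shares within a library do not depend on the scaling. Slc16a7 took 78.2% ± 1.66 of the sum in untreated PD and 0.0375% ± 0.0128 in untreated LZ. Slc16a1 took 6.57% ± 1.64 in untreated PD and 85.5% ± 0.190 in untreated LZ. Slc16a6 held 13.7% ± 0.252 in untreated PD and 0.874% ± 0.255 in untreated LZ, and Slc16a10 held 0.354% ± 0.118 and 13.4% ± 0.0567 in the same groups. In untreated PD the order per kb was Slc16a7, Slc16a6, Slc16a1, Slc16a13, Slc16a3 and Slc16a10, and the last 2 overlapped between libraries. In untreated LZ it was Slc16a1, Slc16a10, Slc16a6, Slc16a3, Slc16a13 and Slc16a7, and the last 3 overlapped. The transcripts in use are not known, and a shorter one would raise a gene's level.

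**Figure D2:**
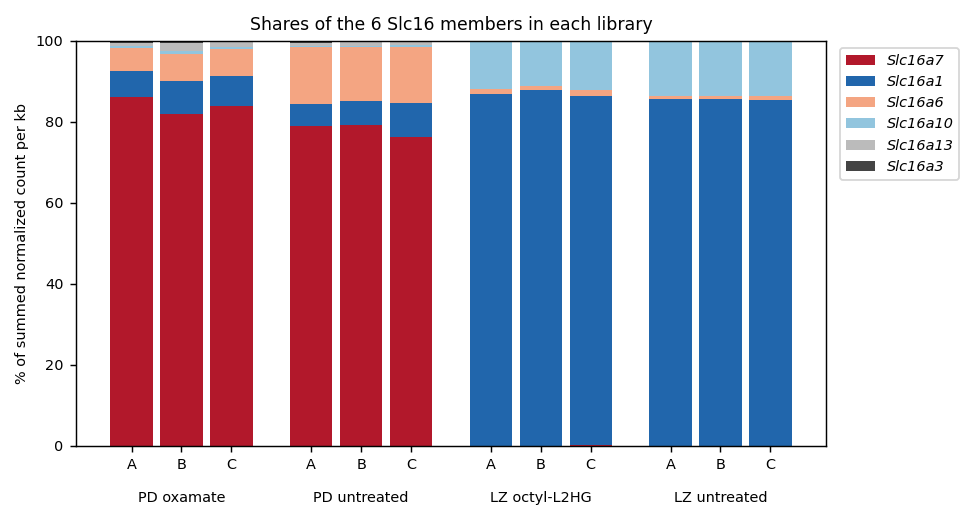
Share of each SLC16 member in the summed normalized count per kb, in percent, for each of the 12 libraries. Slc16a7 makes up 76.3% to 86.1% of the PD libraries and Slc16a1 85.3% to 87.7% of the LZ libraries, and the share of Slc16a6 is 5.78% to 6.64% with oxamate and 13.4% to 13.9% in untreated PD.

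Of the chaperones, Bsg passed no test between the stages and Emb was lower in PD cells. Bsg had 8452, 8584 and 7715 normalized counts in untreated PD libraries, against 8113, 8446 and 7085 in untreated LZ libraries, and the groups overlapped. Its log2 fold change was 0.07 (95% interval -0.11 to 0.25, limma adjusted p = 0.44), which becomes -0.41 (adjusted p = 0.00016) when counts are scaled by their totals alone. The median of all genes was -0.08 with that scaling and 0.49 with the scaling used here, so Bsg lay below the median under either. Emb was low throughout, at 3.46, 7.92 and 4.19 normalized counts in untreated PD and 22.4, 20.9 and 11.3 in untreated LZ, without overlap (log2 fold change -1.65, SE 0.34, limma adjusted p = 0.000366). With LZ library A or B left out its mean was below the filter and it could not be tested. Per kb of the longest coding transcript Bsg stood 3428 ± 1306 times above Emb in untreated PD and 888 ± 269 times in untreated LZ, or 6812 ± 2595 and 1766 ± 535 times per kb of all exons. Emb, whose product can partner that of Slc16a7, was lower in the stage in which Slc16a7 was high, and Bsg was abundant in both stages. Which partner the products use in these cells was not measured. Bsg, ENSMUSG00000023175, lies on chromosome 10 at 79704491 to 79711969, and Emb, ENSMUSG00000021728, on chromosome 13 at 117208536 to 117274415.

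The subunits of the mitochondrial pyruvate carrier went opposite ways. Mpc1 had 303, 343 and 344 normalized counts in untreated PD libraries, against 1209, 1371 and 1365 in untreated LZ libraries. Mpc2 had 4472, 3863 and 3708 in untreated PD libraries, against 1090, 938 and 884 in untreated LZ libraries. Neither gene's groups overlapped, and the changes were of like size: a log2 fold change of -1.99 for Mpc1 (SE 0.09, limma adjusted p = 4.08e-11) and 2.05 for Mpc2 (SE 0.10, limma adjusted p = 6.52e-11). Per kb of the longest coding transcript, the ratio of Mpc2 to Mpc1 was 11.5 ± 2.03 in untreated PD and 0.698 ± 0.129 in untreated LZ (SD, n = 3 each), so Mpc1 was the more abundant transcript in LZ and Mpc2 in PD. Per kb of all annotated exons the ratio was 3.48 ± 0.614 in untreated PD and 0.211 ± 0.0389 in untreated LZ, which leaves that order but not the sizes. Mpc1, ENSMUSG00000023861, lies on chromosome 17 at 8282904 to 8297661 and Mpc2, ENSMUSG00000026568, on chromosome 1 at 165460637 to 165481214.

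**Figure D3:**
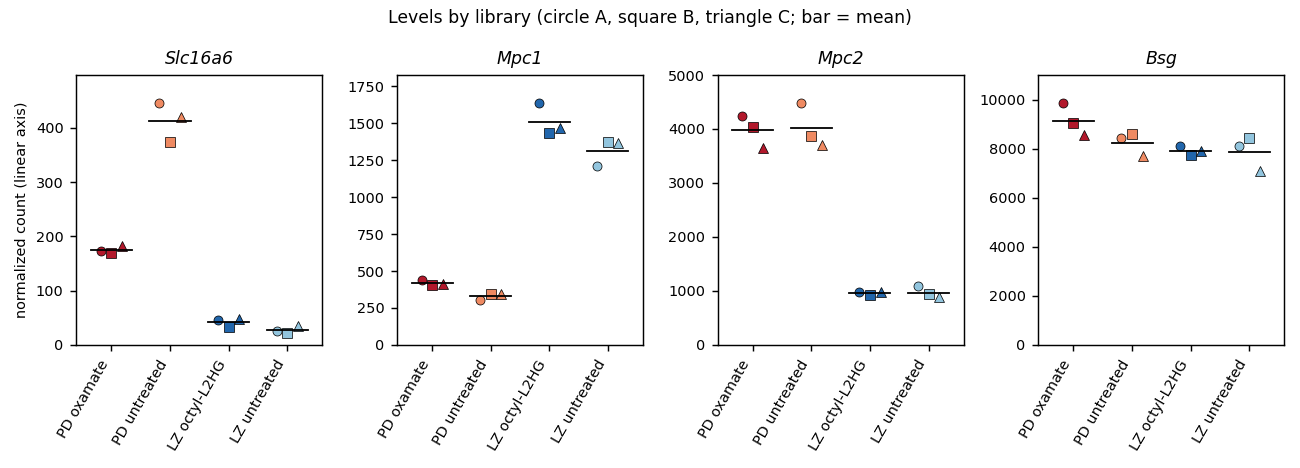
Normalized counts of Slc16a6, Mpc1, Mpc2 and Bsg by library on linear axes that start at 0, with a bar at each group mean. Mpc1 averages 330 in untreated PD and 1315 in untreated LZ while Mpc2 averages 4015 and 971, and Slc16a6 averages 174 with oxamate and 413 in untreated PD.

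Other genes of the pathway were called in both directions between the stages, at shares to be read against the 50.8% of all genes called higher and 39.0% called lower. Of 12 related transporters and chaperones, 11 were in the table and 4 were tested, with 1 higher and 2 lower in untreated PD and a median log2 fold change of -1.46. Slc16a12, a creatine transporter, was higher (log2 fold change 3.95), and Nptn, the neuroplastin chaperone related to basigin, and Slc16a4 were lower (log2 fold changes -3.98 and -3.90). Of 23 tested pyruvate and lactate genes, 9 were higher and 12 lower, with a median log2 fold change of -0.68. The lactate dehydrogenase genes Ldhc, Ldhal6b and Ldha rose by 8.41, 7.86 and 7.72 on the log2 scale, while Ldhd, for the D-lactate enzyme, was lower (log2 fold change -0.98, limma adjusted p = 0.000104). Pdk1, a kinase that shuts off pyruvate dehydrogenase, the X-linked subunit gene Pdha1 and the phosphatase regulator Pdpr were lower, with log2 fold changes of -7.29, -6.91 and -5.23, while a second such kinase gene, Pdk2, was higher (7.63). Of 7 tested genes of sugar uptake and phosphorylation, with a median log2 fold change of 1.76, 4 were higher, led by Slc2a5, whose product mainly carries fructose, the hexokinase Hk1 and the glucose transporter Slc2a3 (log2 fold changes 9.06, 7.51 and 7.21), and 3 were lower, the glucose transporters Slc2a1 and Slc2a4 and the hexokinase Hk3 (-8.22, -1.46 and -1.16).

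**Figure D4:**
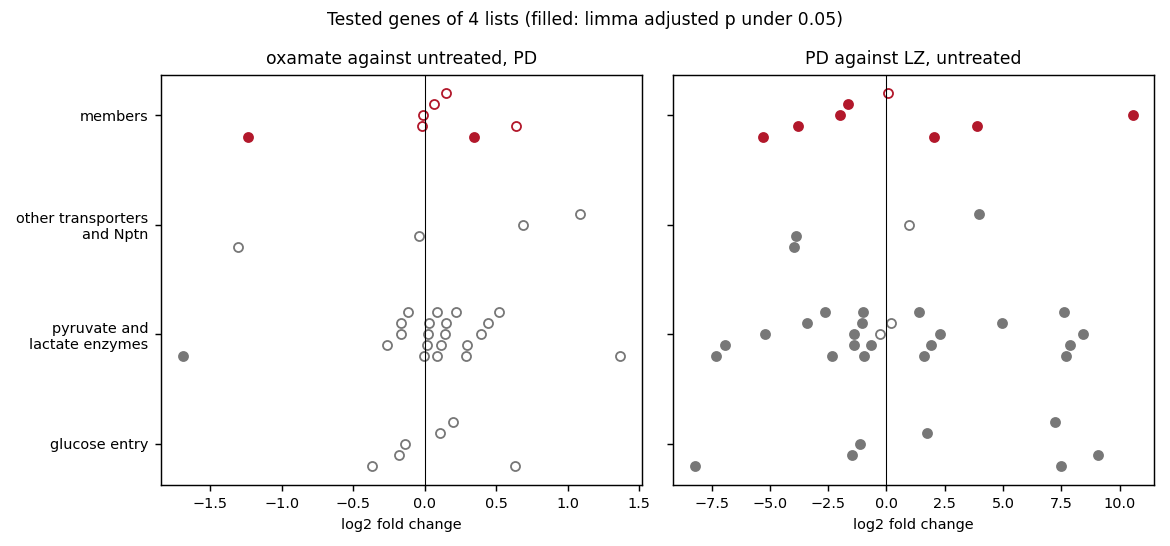
Log2 fold changes of the tested genes in 4 lists, with oxamate against untreated PD on the left and untreated PD against untreated LZ on the right; filled points have a limma adjusted p under 0.05. Most stage points are filled and spread to both sides, and with oxamate the filled points are Slc16a6 at -1.24, Mpc1 at 0.34 and Ldhd at -1.69.

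Oxamate was added to PD cells because, by the series text, it lowers their 2-hydroxyglutarate to the LZ level. Slc16a6 was lower and Mpc1 was slightly higher with oxamate, and the abundant transporter Slc16a7, the carrier subunit Mpc2 and the chaperone Bsg passed no test. Of 7 members tested, 1 was higher and 1 lower, with 6.15% of 15210 tested genes called higher and 1.67% lower. The median log2 fold change was 0.06 over the tested members and 0.03 over all genes.

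Slc16a6 had 172, 169 and 182 normalized counts in PD libraries with oxamate, against 444.8, 373 and 420.2 in untreated PD libraries. All 3 treated libraries lay below all untreated ones, and the untreated mean was 2.37-fold the treated mean. The log2 fold change was -1.24 (SE 0.20, limma adjusted p = 0.00254) and the authors' deposited table gives -1.27 (adjusted p = 4.14e-12). Without any 1 of the PD libraries the limma adjusted p was 0.00543 to 0.00986. The overlapping Amz2 had 6393 ± 278 normalized counts with oxamate and 6156 ± 84.5 in untreated PD (SD, n = 3 each, limma adjusted p = 0.78). Arsg, also overlapping, had 46.0 ± 9.66 with oxamate and 68.1 ± 15.8 in untreated PD (limma adjusted p = 0.537). Untreated LZ libraries, for comparison, held 22.1 to 35.2 of Slc16a6. Round spermatid markers held 0.105% to 0.130% of counts with oxamate and 0.133% to 0.157% in untreated PD, and endothelial markers 0.00151% to 0.00166% with oxamate and 0.00247% to 0.00252% in untreated PD. Spermatogonial markers held 0.000659% to 0.000800% with oxamate and 0.000835% to 0.00105% in untreated PD, peritubular markers 0.000455% to 0.000530% with oxamate and 0.000568% to 0.000710% in untreated PD. Macrophage markers held 0.000279% to 0.000351% with oxamate and 0.000414% to 0.000467% in untreated PD, and Leydig markers 0.000175% to 0.000261% with oxamate and 0.000297% to 0.000385% in untreated PD. As shares of total counts these 6 lists were lower with oxamate without overlap between the groups. Such shares lack the scaling to composition, with factors of 0.824 to 0.830 with oxamate and 0.861 to 0.881 in untreated PD. Overlap was not examined after that scaling. Early meiotic markers overlapped, at 0.0526% to 0.0882% with oxamate and 0.0558% to 0.0877% in untreated PD. Pachytene and diplotene markers also overlapped, at 1.137% to 1.230% with oxamate and 1.227% to 1.253% in untreated PD. Sertoli markers overlapped with the higher mean under oxamate, at 0.000327% to 0.000382% against 0.000252% to 0.000355% in untreated PD. Erythroid markers overlapped near 0, at most 3.32e-05% with oxamate and 1.26e-05% in untreated PD. The part of the marker lists in the Slc16a6 and Mpc1 results was not tested.

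Mpc1 had 438.5, 406 and 412 normalized counts with oxamate, against 303, 343 and 344 in untreated PD libraries. The groups did not overlap, and the means differed 1.27-fold (log2 fold change 0.34, SE 0.09, limma adjusted p = 0.0376). The call was narrow: leaving out any 1 of the 6 PD libraries gave adjusted p-values of 0.0738 to 0.18, and the authors' deposited table gives 0.32 with an adjusted p of 0.171. Mpc2 had 4244, 4032 and 3644 with oxamate, against 4472, 3863 and 3708 in untreated PD, which overlapped (log2 fold change -0.01, 95% interval -0.23 to 0.20). The ratio of Mpc2 to Mpc1 per kb of the longest coding transcript was 8.89 ± 0.531 with oxamate and 11.5 ± 2.03 in untreated PD, and per kb of all exons 2.69 ± 0.161 with oxamate and 3.48 ± 0.614 in untreated PD.

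The other members with oxamate gave values within or near the spread of the libraries. Slc16a7 had 6676, 5425 and 6100 normalized counts with oxamate, against 6573, 5736 and 6051 in untreated PD libraries, and its interval is wide (log2 fold change -0.02, 95% interval -1.35 to 1.32) because the fit shares one spread with the LZ libraries, where the gene is near 0. Slc16a1 had 198.8, 218.6 and 220.0 with oxamate, against 182, 169.7 and 270.1 in untreated PD (log2 fold change 0.06, 95% interval -0.28 to 0.41). Bsg had 9843, 9028 and 8567 with oxamate, against 8452, 8584 and 7715 in untreated PD, which overlap by a narrow margin (log2 fold change 0.15, limma adjusted p = 0.347). Slc16a10 averaged 21.2 ± 4.59 with oxamate and 13.8 ± 5.38 in untreated PD (SD, n = 3 each; log2 fold change 0.64, limma adjusted p = 0.188).

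Slc16a3, Slc16a13 and Emb did not reach the filter in this comparison, Slc16a3 and Slc16a13 because their mean over all 12 libraries was too low. Slc16a3 had 15.1, 11.7 and 11.7 normalized counts with oxamate, against 15.0, 10.2 and 10.9 in untreated PD. Slc16a13 had 16.0, 31.2 and 17.5 with oxamate, against 13.8, 14.7 and 13.4 in untreated PD, without overlap. In a fit of only the PD libraries neither was called, with log2 fold changes of 0.08 for Slc16a3 and 0.51 for Slc16a13 (limma adjusted p = 0.899 and 0.315). The authors' deposited table gives 0.55 for Slc16a13 (adjusted p = 0.767). Emb had 4.44, 4.88 and 6.81 with oxamate, against 3.46, 7.92 and 4.19 in untreated PD. As a share of the 6 SLC16 members per kb, Slc16a6 was 6.31% ± 0.465 with oxamate and 13.7% ± 0.252 in untreated PD, while Slc16a7 was 84.0% ± 2.06 and 78.2% ± 1.66.

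In the wider pathway a lone gene passed the test with oxamate. Ldhd, which encodes the mitochondrial D-lactate dehydrogenase, had 21.0 ± 2.32 normalized counts with oxamate and 70.1 ± 7.41 in untreated PD (log2 fold change -1.69, SE 0.18, limma adjusted p = 0.000303). None of the other 20 tested pyruvate and lactate genes, the 4 tested related transporters and chaperones or the 6 tested glucose entry genes did. An unadjusted limma p under 0.05 was found for 5 of all 21 pyruvate and lactate genes, 2 transporters and 0 glucose entry genes. It was found for 21.1% of all tested genes. Among these transporters Slc16a9 had a log2 fold change of 1.09 (limma adjusted p = 0.0587) and Slc16a12 of -1.31 (limma adjusted p = 0.0968), and for each of them the groups did not overlap.

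**Figure D5:**
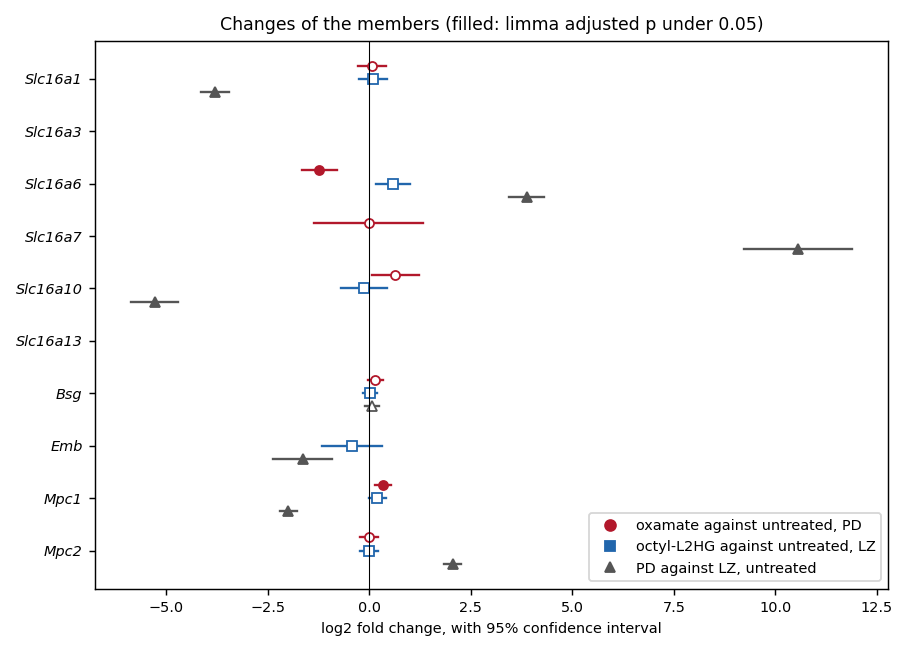
Log2 fold changes with 95% confidence intervals for the tested members: circles for oxamate against untreated PD, squares for octyl-L2HG against untreated LZ and triangles for untreated PD against untreated LZ. Stage changes run from -5.29 for Slc16a10 to 10.56 for Slc16a7, the treatments stay between -1.24 and 0.64, and filled symbols, for a limma adjusted p under 0.05, occur with oxamate for Slc16a6 and Mpc1 and with octyl-L2HG for none.

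Octyl-L2HG adds 2-hydroxyglutarate to LZ cells, and no member passed the test there. Of 7 members tested, 0 were called in either direction by limma, with 0.277% of 13005 tested genes called higher and 0.0231% lower, and 1 had an unadjusted p under 0.05, as did 13.0% of all tested genes. Fits with voom weights also called 0, and the authors' deposited table holds 0 members at that threshold. The median log2 fold change was 0.01 over the tested members and 0.06 over all genes.

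The gene with the low unadjusted p was Slc16a6. It had 44.9, 32.4 and 48.1 normalized counts with octyl-L2HG, against 25.8, 22.1 and 35.2 in untreated LZ libraries, and treated library B lay below untreated library C. The log2 fold change was 0.58 (SE 0.20, limma adjusted p = 0.227). Mpc1 had 1634, 1431 and 1467 with octyl-L2HG, against 1209, 1371 and 1365 in untreated LZ, groups that did not overlap, with a log2 fold change of 0.20 (95% interval -0.000208 to 0.40, limma adjusted p = 0.383). Mpc2 had 985, 921 and 983 with octyl-L2HG, against 1090, 938 and 884 in untreated LZ (log2 fold change -0.01, 95% interval -0.22 to 0.21).

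Slc16a1, the main transporter gene of LZ cells, had 3378, 2724 and 3101 normalized counts with octyl-L2HG, against 3405, 2542 and 2707 in untreated LZ (log2 fold change 0.09, 95% interval -0.25 to 0.44). Slc16a10 had 563, 417 and 534 with octyl-L2HG, against 654.5, 484.1 and 520.8 in untreated LZ (log2 fold change -0.13, 95% interval -0.71 to 0.44). Both overlapped between the groups. Bsg had 8103, 7752 and 7915 with octyl-L2HG, against 8113, 8446 and 7085 in untreated LZ (log2 fold change 0.01, 95% interval -0.17 to 0.19). Emb had 11.4, 13.6 and 13.2 with octyl-L2HG, against 22.4, 20.9 and 11.3 in untreated LZ (log2 fold change -0.43, limma adjusted p = 0.647).

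The 3 members not tested with octyl-L2HG were near 0. Slc16a7 had 4, 4 and 22 reads in libraries A, B and C with octyl-L2HG, against 6, 2 and 2 in untreated LZ, so most of the treated sum of 30 came from library C. Library C was also the highest LZ library for Ldhc and Ldha, which are high in PD and were chosen after their values were seen: Ldhc had 190.5, 131.7 and 406 normalized counts with octyl-L2HG, against 246, 188 and 157.7 in untreated LZ, and Ldha had 124, 77.4 and 174 with octyl-L2HG, against 127, 101.0 and 110.1 in untreated LZ. Ldhal6b, also high in PD, was instead highest in untreated library A, at 118.7 normalized counts, against 111.8 in treated library C. The listed pachytene and diplotene markers held 0.101% to 0.115% of counts with octyl-L2HG and 0.107% to 0.158% in untreated LZ. Slc16a3 had 3 reads in all with octyl-L2HG and 11 in untreated LZ, and Slc16a13 had 2 and 5. In none of the pathway lists did a gene pass the test with octyl-L2HG: 0 of 22 tested pyruvate and lactate genes, 0 of 2 related transporters and chaperones and 0 of 7 glucose entry genes were called by limma, with 2, 1 and 1 of them at an unadjusted p under 0.05, against 13.0% of all tested genes.

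The difference between the oxamate change in PD cells and the octyl-L2HG change in LZ cells was tested directly for 6 members. Of these, 0 were called higher and 1 lower, with 0.712% of 11232 tested genes called higher and 0.516% lower. Slc16a6 was the one, with an oxamate change of -1.24, an octyl-L2HG change of 0.58 and a difference of -1.82 (SE 0.28, limma adjusted p = 0.0104). The agents, the stages and the times in culture all differ between the changes set against each other. Mpc1, with changes of 0.34 and 0.20, had a difference of 0.14 (95% interval -0.14 to 0.43, limma adjusted p = 0.627), and Slc16a10 one of 0.77 (limma adjusted p = 0.328). Ldhd also differed, by -1.94 (SE 0.25, limma adjusted p = 0.00445), with changes of -1.69 for oxamate and 0.25 for octyl-L2HG.

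Genes whose log2 profile over the 12 libraries lay closest to a member were sought by Euclidean distance after centring. The 9134 candidates averaged at least 100 normalized counts, and genes with Gm, Rik or certain clone names were left out. Slc16a7 was nearest to Gykl1, Fam170a and Ppp3r2 (root mean square differences of 0.21 to 0.24 on the log2 scale) and Slc16a1 to Trak2, Eml3 and Peli1 (0.13 to 0.15). Slc16a10 was near to Nsdhl and Ppp2r3a (0.19 and 0.21). Slc16a6 had no neighbour as close, with AA986860, Mical3 and Cnst at 0.27 to 0.36, and neither had Emb, with Nsmf, Pfdn2 and Inca1 at 0.28 to 0.30. Emb had only 3 to 26 reads per library, and the part of low counts in its distances was not tested. Bsg was nearest to Naa25, Sdhb and Rpn2 (0.06 to 0.07), Mpc1 to Wipf2, Ap1ar and Emc1 (0.06 to 0.09) and Mpc2 to Dnajb1, Ehmt2 and Cstf1 (0.06 to 0.08). The stage difference dominates these distances.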

How the data were processed

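RNA-seq read counts were used from 12 libraries in 4 groups of 3. The authors deposited 1 table, in which raw counts per gene stand beside 12 columns of normalized values (not used) and their own comparisons. Per the submitters' processing notes, the build was GRCm38 and the tools were DESeq2 1.22.2, HTSeq 0.6.0, TopHat2 2.1.1, cutadapt 1.18 and bcl2fastq 2.18.0.12. The annotation release, strand setting and the model used are not given in those notes. Libraries were made by poly-A capture with a stranded kit, per the labels' protocols. In 6255 of the 55471 genes a question mark replaces the deposited counts, so a planned count test was exchanged for limma. Columns show the group but not the labelled replicate.

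Counts were scaled by trimmed mean of M values (TMM) and fitted as log2(normalized count + 1), which understates changes of low genes, with limma 3.58.1 (trend, robust) in R 4.3.3 on the means of 4 groups. Genes needed a mean of at least 10 over all libraries and over those compared. Two-sided p-values were adjusted by Benjamini-Hochberg over all genes tested. The procedure was tested on simulated data with the same extra spread for every gene and unpaired libraries. Known changes were put only in genes above a minimum level, so changes of low genes and paired libraries were not checked. All 10 members are named. From each of the other lists up to 3 called rises and 3 called falls per comparison are named. For the stages Pdk2 and Ldhd are named beyond this rule. The values of Slc16a9 and Slc16a12 with oxamate were added after they were seen. One gene with a profile like that of a member is not reported here. The members and lists were chosen with earlier results of these data known. Gene lengths come from GENCODE vM21, whose gene coordinates equal the deposited ones.

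Libraries with the same code deviated together in PD (correlations of deviations from the group means of 0.231 to 0.358), so by this measure the codes pair them. In LZ the correlations of the same code were 0.0489 to 0.147, against -0.122 to 0.0631 between different codes. Between stages they were 0.0327 to 0.104, against -0.0668 to 0.0300. Both were weaker than in PD, and this measure does not settle whether the codes pair libraries there. The reported p-values come from a fit that did not pair libraries. Alternatives covered scaling, pseudocount, filter, voom, blocks and left-out libraries.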

Additional observations from a re-analysis of the deposited data

Results flagged for a closer look

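Slc16a6 stood out because its change with oxamate in PD cells and its change with octyl-L2HG in LZ cells differed in a direct test of that difference. The log2 fold change was -1.24 with oxamate and 0.58 with octyl-L2HG, a difference of -1.82 (SE 0.28, limma adjusted p = 0.0104). All 3 libraries with oxamate lay below all 3 untreated PD libraries, and the octyl-L2HG change did not pass its own test (limma adjusted p = 0.227).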

How the results depend on the processing

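The oxamate count of 2 members became 1 (Slc16a6, with Mpc1 lost) under total-count scaling, median-of-ratios scaling, voom weights, only the libraries compared and no filter beyond a mean of 1, with adjusted p-values of 0.113, 0.0957, 0.0666, 0.0564 and 0.0577 for Mpc1. It was also 1 in every fit without 1 PD library. With a minimum of 50 the difference between the treatments had 0 members called, because Slc16a6 was then not tested; without any 1 library Slc16a6 kept a difference of -2.001 to -1.68. The stage count was 7 and ranged from 6 to 7 without 1 library, with Emb untested in the lower case. With the replicate block 2, 0, 7 and 1 members were called for oxamate, octyl-L2HG, stage and treatment difference, and no call of a member changed. The block within each stage called 1928 genes higher and 500 lower with oxamate, against 936 and 254 as reported. It called 514 and 75 with octyl-L2HG, against 36 and 3, and 700 and 453 in the difference, against 80 and 58. Over the settings other than left-out libraries, this block among them, 0 members were called with octyl-L2HG. Slc16a6 had limma adjusted p-values of 0.0519 to 0.422 there. Without 1 library the all-gene counts ran from 107 to 203 lower with oxamate, from 19 to 59 higher and 1 to 8 lower with octyl-L2HG, and from 10 to 354 higher and 22 to 87 lower in the treatment difference, so the shares of genes called there shift with single libraries. Under other settings the counts that moved by over 1.5 times were 383, 588, 147, 468 and 809 lower with oxamate (total-count scaling, pseudocount 5, minimum 50, voom, only the libraries compared). With octyl-L2HG they were 22 higher and 8 lower (total-count scaling), 22 higher and 0 lower (voom), 6 lower (no filter), 1 lower (minimum 50) and 15 higher (only the libraries compared). In the treatment difference they were 260 and 124 (total-count scaling), 198 and 100 (median-of-ratios), 213 and 130 (replicate block), 92 lower (pseudocount 5) and 44 higher (no filter). The stage calls split into 7434 higher and 7768 lower under total-count scaling, against 8569 and 6569.

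Changes of sign touched values near 0. Under total-count scaling the log2 fold change was -0.0066 for Slc16a1 with oxamate and -0.0668 for Bsg with octyl-L2HG, and -0.41 for Bsg between stages, where Bsg was then called lower. Median-of-ratios scaling gave -0.0254 for Bsg with octyl-L2HG and a treatment difference of 0.00104 for Mpc2, for which voom gave 0.000446. Only the libraries compared gave -0.0495 and -0.109 for Bsg with octyl-L2HG and between stages. Without 1 library the values ran from -0.0642 to 0.284 (Slc16a1), -0.113 to 0.0829 (Slc16a7) and -0.0882 to 0.0778 (Mpc2) with oxamate, from -0.13 to 0.12 (Bsg) between stages, from -0.0634 to 0.0633 (Bsg) and -0.0706 to 0.0802 (Mpc2) with octyl-L2HG, and from -0.155 to 0.261 (Slc16a1) and -0.0934 to 0.155 (Mpc2) in the treatment difference. The causes were not tested. With all exons in place of the longest coding transcript, Slc16a7 took 78.6% of the 6 SLC16 members in untreated PD and Slc16a1 took 88.8% in untreated LZ. Depth limits Slc16a3, Slc16a13 and Emb, which have few reads in every library.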
